A study of Mus musculus with 8 samples.

Results

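The genes described here are 28 mouse genes, called ALS and FTD genes below. The human counterparts of most are linked to inherited amyotrophic lateral sclerosis (ALS) or frontotemporal dementia (FTD). The 28 also include Stmn2 and Unc13a, known in human neurons as RNA targets of the ALS protein TDP-43. They were chosen by name, and all 28 were found among the 15978 rows of the authors' deposited table through the RefSeq accessions in the row names. Each of them had a row that held no other gene. RNA of brain, with no region given, was compared between 5 male C9-BAC mice and 3 male wild-type mice on a mixed SJL/Bl6 background. The C9-BAC mice carried a bacterial artificial chromosome with human C9ORF72 and 500 G4C2 repeats, and the sources used here give neither age nor founder line.

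ALS is a loss of motor neurons and FTD a degeneration of the frontal and temporal cortex, and expansion of the C9ORF72 repeat is a known cause of both. Most patients with either disease and this expansion show TDP-43, the product of TARDBP, cleared from the nucleus and aggregated in the cytoplasm. The other genes of inherited disease fall into a few processes: RNA binding and RNA granules, the tagging and autophagic clearance of proteins, endosomes and lysosomes, the cytoskeleton, and mitochondria. Because the repeat and these genes lead to overlapping diseases, the comparison bears on whether the transcripts of these genes differ in brain that carries the repeat.

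No ALS or FTD gene passed the test for a change in the brain of C9-BAC mice relative to wild-type mice. Per the authors' deposited table, 0 of 28 passed a DESeq2 adjusted p of 0.05 (0% of 15944 rows with a p passed), and 0 of 28 had an unadjusted p under 0.05, where 1.50% of all rows did. The adjusted p from DESeq2 was 0.9997 for every one of the 28 in the authors' deposited table. Sod1 and Anxa11 were the only ones below an unadjusted p of 0.10, 2 of 28 where 3.65% of all rows of the authors' deposited table lay there. The file headers do not name the genotype on top of the fold change, so signs are given as deposited, positive or negative, and not as higher or lower in C9-BAC brain. In bulk tissue such as this, fewer cells of a type and less RNA per cell cannot be told apart.

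Fold changes of these genes were small and spread to both sides of 0. Per the authors' deposited table, 17 were positive and 11 negative, against 47.5% positive over all rows, and log2 fold changes ran from -0.16 for Nek1 to 0.20 for Sod1. On a linear scale the authors' deposited table thus gives folds of 0.896 to 1.15. The median log2 fold change was 0.04 for the 28 genes and -0.0043 for all rows, and the median Wald statistic, the fold change divided by its standard error, was 0.35 against -0.05 in the authors' deposited table. Of the 28, 21 had a log2 fold change within 0.1 of 0 in the authors' deposited table, as had 82.6% of all rows.

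All 28 intervals of 95%, taken as 1.96 standard errors on each side of the deposited log2 fold change, held 0. Standard errors of the 28 genes ran from 0.0647 to 0.110 in the authors' deposited table, and the highest of any row was also 0.110. A ceiling of this kind is typical of fold changes shrunk toward 0, which the sources used here neither state nor deny. After such shrinkage the folds printed here would be too small and the intervals too narrow to limit the true difference. The table holds 1 value per gene and none per mouse, so the spread between mice is carried only by the deposited standard error. Nothing in the labels says outright that each sample is a separate mouse, and if some are not, the p-values cover technical spread only.

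**Figure D1:**
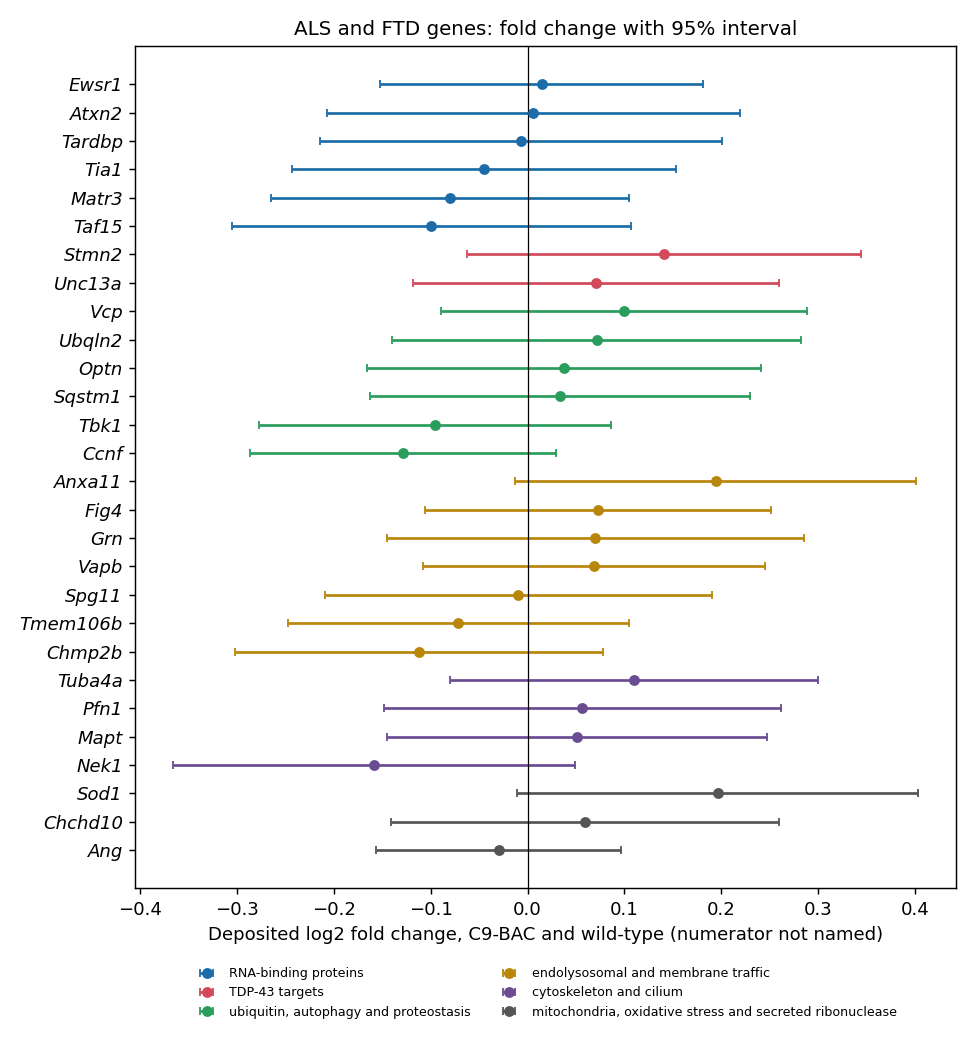
Deposited log2 fold change (x axis) of each of the 28 ALS and FTD genes (rows, coloured by role), with bars of 1.96 deposited standard errors on each side. All 28 bars cross 0, and the points lie between -0.16 for Nek1 and 0.20 for Sod1.

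Most of these genes were well expressed in brain. Mean normalized counts, the authors' mean over samples of counts divided by size factors, had a median of 662.8 for the 28 genes in the authors' deposited table, against 170.8 over all rows. Of the 28, 26 were above the median row, 26 averaged at least 100 normalized counts, and 9 were in the top 10% of rows of the authors' deposited table. Levels of different genes were compared per kb of transcript, with lengths from GENCODE vM21, and no error between mice can be given for them. On that scale the highest were the alpha-tubulin gene Tuba4a with a mean normalized count per kb of 2322, the autophagy receptor gene Sqstm1 with 1754, the FET-family gene Ewsr1 with 1121, the tau gene Mapt with 1070 and the superoxide dismutase gene Sod1 with 1064, from the authors' deposited table. Lengths are means over the matched transcripts, for Mapt 3307.5 bases over 2 transcripts, the longer of 5253. Its place among the highest depends on that mean. At the low end stood Ang with 9.18, the cyclin F gene Ccnf with 14.1 and the spatacsin gene Spg11 with 47.1 mean normalized counts per kb, from the authors' deposited table, where the median of all rows was 63.1. Ang and Ccnf also had the lowest mean normalized counts of the 28 genes, 8.37 and 58.2, and at the same time the 2 smallest standard errors, 0.0647 and 0.0806, in the authors' deposited table.

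**Figure D2:**
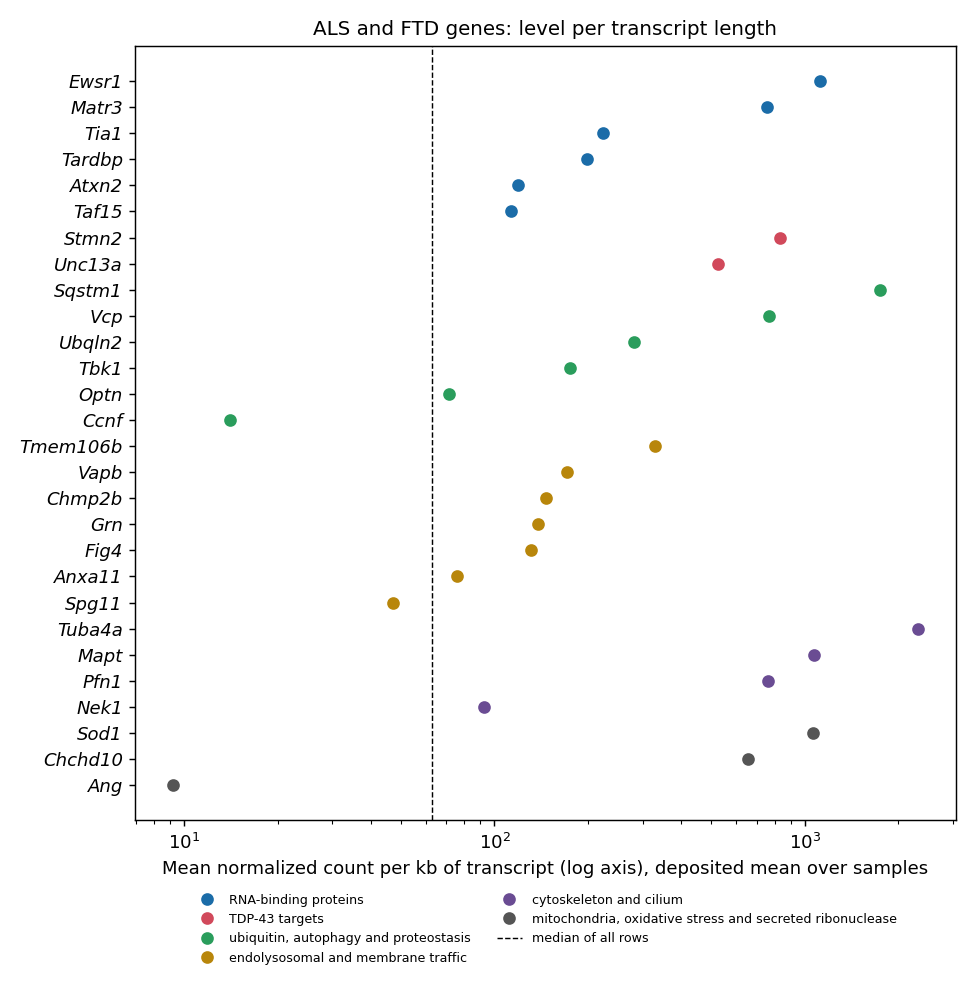
Mean normalized count per kb of transcript on a log axis (x axis) for the 28 genes (rows, coloured by role), with the median of all rows as a dashed line at 63.1. Of the 28, only Ang, Ccnf and Spg11 lie left of that line, and Tuba4a is highest at 2322.

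The RNA-binding proteins are TDP-43 (Tardbp), which binds UG-rich RNA and represses faulty exons, matrin 3 (Matr3), a nuclear matrix protein, the FET-family proteins Ewsr1 and Taf15, Tia1, which nucleates stress granules, and ataxin 2 (Atxn2), which modifies TDP-43 toxicity. Of these 6 genes, 2 were positive and 4 negative in the authors' deposited table, and none was below an unadjusted p of 0.05. Over all rows, 47.5% were positive and 1.50% lay below that p. Tardbp, on chromosome 4 at 148612382 to 148627084 (mm10, 1-based), averaged 1146 normalized counts and had a log2 fold change of -0.01 ± 0.11 (SE) per the authors' deposited table (p = 0.948 before and 0.9997 after DESeq2 adjustment). Its interval ran from -0.21 to 0.20, or folds of 0.862 to 1.15 on the scale of the authors' deposited table. Atxn2 was as close to 0, at 0.01 ± 0.11 (SE), and Ewsr1 followed at 0.01 ± 0.09 (SE) in the authors' deposited table. The other FET gene, Taf15, was negative at -0.10 ± 0.11 (SE), which is less than 1 SE away from 0 in the authors' deposited table. Matr3 at -0.08 ± 0.09 (SE) and Tia1 at -0.05 ± 0.10 (SE) per the authors' deposited table also lay less than 1 SE away from 0.

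Stmn2 encodes stathmin 2, which supports axon growth and repair, and Unc13a encodes Munc13-1, which primes synaptic vesicles for release. In human neurons that lack nuclear TDP-43 both transcripts take in cryptic exons and their full-length forms fall, but those human exons are not conserved in mouse. A gene-level value such as the one deposited cannot show exon use in any case. Stmn2, on chromosome 3 at 8509527 to 8561604, averaged 1730 normalized counts and had a log2 fold change of 0.14 ± 0.10 (SE) per the authors' deposited table (p = 0.175 before and 0.9997 after DESeq2 adjustment). Unc13a, on chromosome 8 at 71624125 to 71671774, averaged 5394 normalized counts and had a log2 fold change of 0.07 ± 0.10 (SE) per the authors' deposited table (p = 0.466 before and 0.9997 after DESeq2 adjustment). The deposited Wald statistics were 1.36 for Stmn2 and 0.73 for Unc13a, and neither gene passed the test in the authors' deposited table.

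TDP-43 is known to bind runs of UG in RNA, and to act on the 3′ UTR of its own transcript. For each gene, the longest GENCODE vM21 transcript matched to the RefSeq accessions of its row was therefore searched on its own strand. Other transcripts were not searched. The search was for unbroken TG runs of at least 8 bases, written TGTGTGTG or GTGTGTGT. Such a run was found in 10 of 28 transcripts (35.7%), against 27.5% of the transcripts of 15751 rows. Per kb the 28 genes held 0.122 runs and all rows 0.121, so that the set was about as rich in this motif as the table at large. All 13 runs in these genes lay in a 3′ UTR. The longest ones, in Unc13a and Grn, and those of Tardbp itself are shown as DNA, 5′ to 3′, with the run in capitals, from GENCODE vM21 transcripts.
Unc13a, chr8:71628386-71628415, minus strand: ctctgcacaTGTGTGTGTGTGgctgtgtgt
Grn, chr11:102436744-102436773, plus strand: gagcttgctTGTGTGTGTGTGcgcgtgtgc
Tardbp, chr4:148617122-148617151, minus strand: aatgctgtatgGTGTGTGTtctcctctgtt
Tardbp, chr4:148613760-148613789, minus strand: tcctcctataGTGTGTGTGgacagcccaca
The capitals mark 12 bases in Unc13a and Grn, and 8 and 9 bases in Tardbp. A second run in Unc13a, of 11 bases, is parted from the one shown only by the bases gc. It begins in lower case at the end of the window shown. A match describes the letters only and says nothing of binding. The searched transcript of Stmn2 held no such run. The 10 genes with a run had log2 fold changes from -0.07 for Tmem106b to 0.07 for Fig4 in the authors' deposited table, all less than 1 SE away from 0, as were 19 of the 28 genes and 80.6% of all rows.

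Proteostasis genes, whose products tag, unfold or clear proteins, gave 4 positive and 2 negative values and none under an unadjusted p of 0.05 in the authors' deposited table. The shares of all rows were 47.5% positive and 1.50% under 0.05. TBK1 is a kinase that phosphorylates the autophagy receptors optineurin (Optn) and p62 (Sqstm1), and these 3 did not share a sign. Tbk1 had a log2 fold change of -0.10 ± 0.09 (SE), while Optn stood at 0.04 ± 0.10 (SE) and Sqstm1 at 0.03 ± 0.10 (SE) in the authors' deposited table. Sqstm1 had one of the highest levels of the set and Optn one near the middle of the table, with mean normalized counts per kb of 1754 and 71.6 from the authors' deposited table. Vcp, which encodes the segregase that pulls ubiquitinated proteins out of complexes, was at 0.10 ± 0.10 (SE) in the authors' deposited table, and Ubqln2, a shuttle to the proteasome, at 0.07 ± 0.11 (SE). Ccnf, the substrate adaptor of a ubiquitin ligase, on chromosome 17 at 24223230 to 24251409, averaged 58.2 normalized counts and had a log2 fold change of -0.13 ± 0.08 (SE) per the authors' deposited table (p = 0.109 before and 0.9997 after DESeq2 adjustment). That was the third smallest p of the 28 genes and rank 651 of 15944 in the authors' deposited table.

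Beside 47.5% positive over all rows, endolysosomal and traffic genes gave 4 positive and 3 negative values in the authors' deposited table. Anxa11, which encodes annexin A11, a tether of RNA granules to lysosomes, had the largest of them. It lies on chromosome 14 at 25842127 to 25886804 and averaged 180.8 normalized counts and had a log2 fold change of 0.19 ± 0.11 (SE) per the authors' deposited table (p = 0.0662 before and 0.9997 after DESeq2 adjustment). Its interval ran from -0.01 to 0.40 in the authors' deposited table. Chmp2b, a subunit of the ESCRT-III membrane-cutting complex, on chromosome 16 at 65539128 to 65562762, averaged 274.5 normalized counts and had a log2 fold change of -0.11 ± 0.10 (SE) per the authors' deposited table (p = 0.249 before and 0.9997 after DESeq2 adjustment). Grn, the progranulin gene, and Tmem106b, a lysosomal membrane protein gene that modifies disease risk in human carriers of progranulin mutations, had opposite signs, 0.07 ± 0.11 (SE) and -0.07 ± 0.09 (SE) in the authors' deposited table. Fig4, a phosphoinositide phosphatase, and Vapb, which joins the endoplasmic reticulum to other organelles, both stood at 0.07 ± 0.09 (SE) in the authors' deposited table. Spg11, needed to reform lysosomes, was at -0.01 ± 0.10 (SE) in the authors' deposited table.

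The cytoskeletal and ciliary genes were 3 positive and 1 negative in the authors' deposited table, where 47.5% of all rows were positive. Tuba4a stood at 0.11 ± 0.10 (SE), the actin-binding profilin gene Pfn1 at 0.06 ± 0.10 (SE), and Mapt at 0.05 ± 0.10 (SE) in the authors' deposited table. Nek1, a kinase of cilia and DNA repair, on chromosome 8 at 60993157 to 61131349, was the most negative of the 28 genes. It averaged 480.6 normalized counts, with a log2 fold change of -0.16 ± 0.11 (SE) per the authors' deposited table (p = 0.134 before and 0.9997 after DESeq2 adjustment). The interval of Nek1 ran from -0.37 to 0.05 in the authors' deposited table.

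Sod1, the cytosolic superoxide dismutase whose mutations were among the early known causes of familial ALS, had the smallest p of the set. It lies on chromosome 16 at 90220762 to 90226333 and averaged 682.3 normalized counts and had a log2 fold change of 0.20 ± 0.11 (SE) per the authors' deposited table (p = 0.0631 before and 0.9997 after DESeq2 adjustment). Its interval ran from -0.01 to 0.40, or folds of 0.993 to 1.32, and it ranked 320 of 15944 by p in the authors' deposited table. Chchd10, a protein of the mitochondrial intermembrane space, was at 0.06 ± 0.10 (SE), and Ang, the secreted ribonuclease angiogenin, at -0.03 ± 0.06 (SE), in the authors' deposited table. Mouse C9orf72 itself averaged 311.2 normalized counts and had a log2 fold change of -0.08 ± 0.10 (SE) per the authors' deposited table (p = 0.454 before and 0.9997 after DESeq2 adjustment).

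Signs among the 28 genes went with the GC content of their transcripts, as signs did across the whole table. Rows were split into quintiles of GC content. In the lowest quintile, 29.8% to 44.7%, all 6 members were negative as deposited: Nek1, Chmp2b, Matr3, Tmem106b, Tia1 and Tardbp. There, 23.8% of all rows were positive in the authors' deposited table. In the quintile at 52.4% to 56.1% GC, 9 of 10 members were positive, Ccnf being the exception, where 60.7% of all rows were positive in the authors' deposited table. The middle quintile held 9 members, 6 of them positive, where 50.4% of rows were, and the other quintiles held 2 members with 1 positive and 1 member that was positive, in the authors' deposited table. Across the 28 genes, which share the same libraries and are no independent replicates, Spearman's rho of the deposited statistic with GC content was 0.485, and across 15718 rows it was 0.372.

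With GC content and length taken off the statistic and the rest rescaled to a spread of 1, the members held 17 positive values and their median exceeded that of all rows by 0.40. Rescaling alone gave 0.51 for that excess, and the excess of their median log2 fold change was 0.0265 after GC content and length against 0.0399 as deposited. Tardbp and Atxn2 changed sign, to 0.61 and -0.21. Under that setting 4 members, namely Sod1, Ccnf, Anxa11 and Stmn2, lay below an unadjusted 0.05, against 6.26% of all rows. Their unadjusted p-values ran from 0.0112 for Sod1 to 0.0218 for Stmn2. None passed after Benjamini-Hochberg adjustment over all rows, the smallest adjusted p of a member being 0.564, while 0.0318% of all rows did. Rescaling alone put 3 members below that level, where 5.11% of all rows lay, and rescaling after a trend with abundance put 3 there, where 5.19% did. Rescaling centres the statistic and divides it by its own spread, 0.777 as deposited, which raises the share of all rows below that level along with the members' count.

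**Figure D3:**
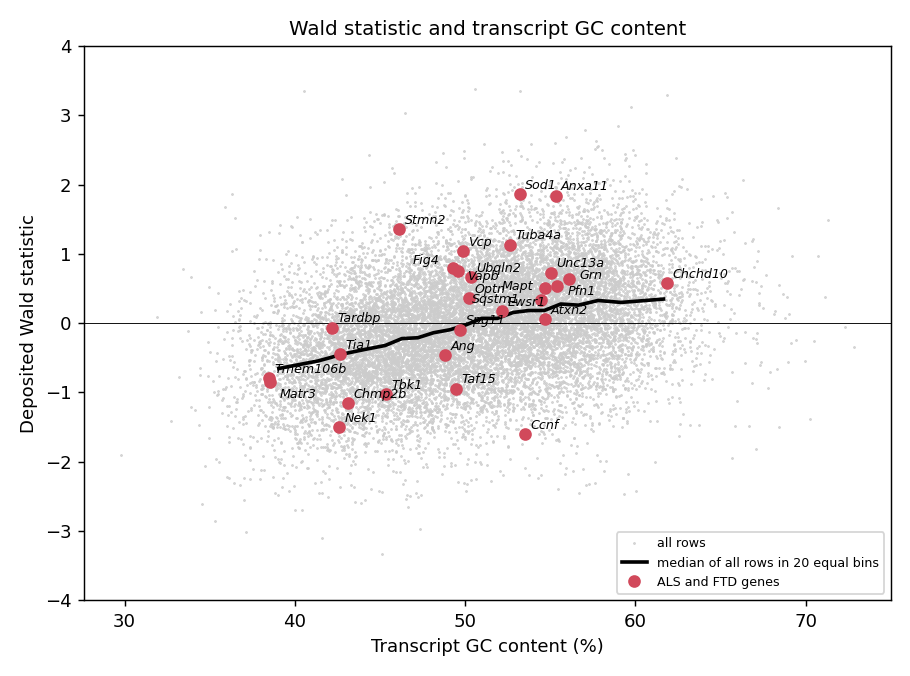
Deposited Wald statistic (y axis) against transcript GC content in percent (x axis) for all rows (grey), their median in 20 bins of equal size (line) and the 28 ALS and FTD genes (red, named). The 6 genes at the lowest GC content lie below 0, Sod1 and Anxa11 are the highest points of the set, and Ccnf lies at -1.60 among GC-rich neighbours that are positive.

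The hexanucleotide of the repeat, GGGGCC, was looked for on both strands in promoter windows of 300 bases, 250 before and 50 after the gene start, from RefSeq on GRCm38.p6. Of the 28 genes, 23 had such a window, in 24 windows in all, and 6 of the 24 (25.0%) held the hexamer, where 25.0% of all 32851 windows did. No member's window held it 2 times in a row. The single copies are shown with the hexamer, or its reverse complement GGCCCC, in capitals, because they are the letters that the transgene repeats 500 times.
Vcp, chr4:43000567-43000596, minus strand: cagccttgaggcGGGGCCaggccacaaacg
Unc13a, chr8:71671794-71671823, minus strand: aggcgtctgcccGGCCCCgccccgtcacgc
Ewsr1, chr11:5099246-5099275, minus strand: cactggcgcgctGGCCCCcgaggcgccttt
Pfn1, chr11:70654672-70654701, minus strand: gaatggggcgcaGGCCCCgccccgccgccc
Ccnf, chr17:24251386-24251415, minus strand: cggggcgggggtGGGGCCcgcgcctgcgtg
Atxn2 held 2 copies of GGCCCC, at chr5:121711377-121711406 and chr5:121711460-121711489 on the plus strand. The log2 fold changes of these 6 genes ran from -0.13 for Ccnf to 0.10 for Vcp in the authors' deposited table, within the range of the whole set.

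Genes around the 28 in the same pathways gave values of the same order. A list of other genes linked to ALS or FTD was drawn up, and not all of them are causes of inherited ALS or FTD. Dao had no row and 20 did, of which 7 were positive and 13 negative in the authors' deposited table, where 47.5% of all rows were positive. Beside 1.50% of all rows, 0 of these 20 were below an unadjusted p of 0.05, and their median log2 fold change was -0.02. Their smallest p belonged to Kif5a, a motor of axonal transport, at 0.14 ± 0.08 (SE) (p = 0.0723) and to Smn1, the gene of spinal muscular atrophy, at 0.13 ± 0.10 (SE) (p = 0.198) in the authors' deposited table. A list of 31 close paralogues and other relatives of the members had 14 positive and 17 negative values in the authors' deposited table. Its median was -0.01 and 0 were under 0.05, beside the same shares of all rows. Tuba1c (-0.10 ± 0.07) and Map2 (-0.12 ± 0.09) led this list in the authors' deposited table. Sod2, the mitochondrial superoxide dismutase, is related to Sod1 by function and not by sequence, and stood at -0.08 ± 0.09 (SE).

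Partners of the proteostasis genes were also near 0, and their counts stand beside 47.5% positive and 1.50% under 0.05 over all rows. The 16 autophagy receptors, TBK1 partners and ATG8 proteins had 7 positive and 9 negative values, a median of -0.02 and 0 under 0.05 in the authors' deposited table, led by Atg13 (0.12 ± 0.09) and Map1lc3b (0.10 ± 0.09). VCP cofactors had 6 positive and 11 negative values of 17, a median of -0.05 and 0 under 0.05, led by Ubxn7 (-0.12 ± 0.11) and Vcpip1 (-0.10 ± 0.10) in the authors' deposited table. Both genes have transcripts of low GC content, 39.9% and 39.1%. The 12 ESCRT-III and VPS4 genes had 5 positive and 7 negative values and 0 under 0.05, led by Ist1 (-0.13 ± 0.09) and Vps4a (0.09 ± 0.09) in the authors' deposited table. Among 11 genes of the FIG4 complex, progranulin traffic and lysosomes, 8 were positive, 3 negative and 0 under 0.05 in the authors' deposited table, with Pikfyve at -0.09 ± 0.09 (SE).

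RNA granule, TDP-43 and remaining lists had no gene past an adjusted p of 0.05, where 0% of all rows passed. Over all rows, 1.50% lay under an unadjusted 0.05 and 47.5% were positive in the authors' deposited table. Stress granule genes split 6 to 6 with 0 under 0.05, led by Fxr1 (-0.13 ± 0.09) and Usp10 (0.12 ± 0.10) in the authors' deposited table. Long-intron genes that need TDP-43 in mouse brain, a list of 7, had 2 positive and 5 negative values, a median of -0.01 and 0 under 0.05 in the authors' deposited table. Fgf14 stood at -0.08 ± 0.10 (SE) among them in the authors' deposited table. Tau kinases and microtubule partners had 8 positive and 5 negative values of 13 and 0 under 0.05 in the authors' deposited table, led by Map2 and Map6 (0.10 ± 0.09). Stathmins and release proteins beside Stmn2 and Unc13a had 9 positive and 4 negative values of 13, a median of 0.05 and 1 under 0.05 in the authors' deposited table. That gene was Stx1a, a syntaxin, at 0.25 ± 0.11 (SE) (p = 0.0219) in the authors' deposited table. Spastic paraplegia partners of spatacsin had 5 positive and 4 negative values of 9 and 1 under 0.05 in the authors' deposited table, Ap5m1 at -0.23 ± 0.11 (SE) (p = 0.0305), followed by Ap5s1 at 0.15 ± 0.11 (SE). Neither Stx1a nor Ap5m1 passed over all rows (DESeq2 adjusted p = 0.9997 for each in the authors' deposited table).

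**Figure D4:**
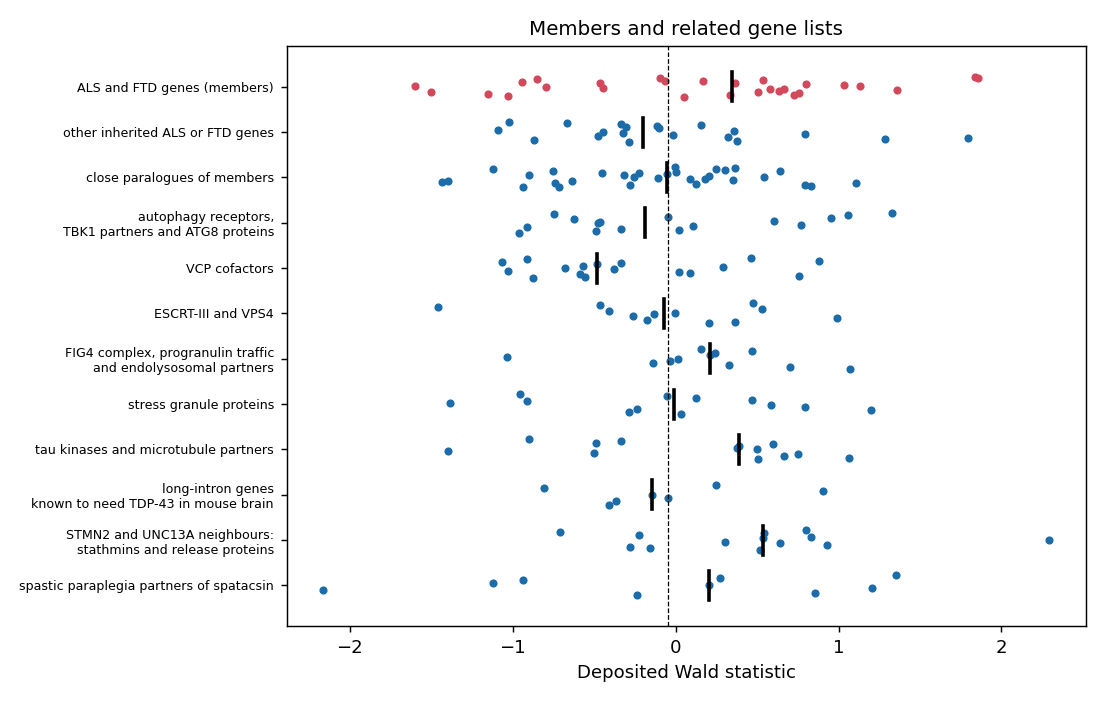
Deposited Wald statistic (x axis) of each gene (points) in the 28 ALS and FTD genes (red) and in 11 related lists (blue), with the median of each list as a bar and that of all rows, -0.05, as a dashed line. Of all genes drawn, only Stx1a and Ap5m1 lie beyond 2 in either direction.

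Some of the rows can share reads with other genes. Exons of 17 members overlap those of another gene in GENCODE vM21, 8 of them over more than 5% of their exon bases. The libraries were strand-specific per the labels, but the sources used here do not say whether the counting used strand. Tuba4a overlaps Stk16 on the opposite strand over 37.3% of its exon bases, and Tardbp overlaps Masp2 over 23.3%. Masp2 averaged 10.7 normalized counts in the authors' deposited table, far under the 1146 of Tardbp. Spg11 overlaps Eif3j1 on the opposite strand over 13.8% of its exon bases. There the other gene was of similar level, with 286.8 normalized counts for Eif3j1 against 361.1 for Spg11 in the authors' deposited table. The Spg11 value is uncertain if counting did not use strand. Ang shares 18.2% of its exon bases on the same strand with Rnase4, which averaged 105.8 normalized counts in the authors' deposited table against 8.37 for Ang, and the Ang value is uncertain. Transcripts of other genes, none with a row of its own in the table, matched 7 members at 95% identity or more over at least 200 bases. These included Gm2260, identical to Anxa11 over 657 bases, Gm8566, 97.8% identical to Sod1 over 465 bases, and Vcp-rs, 99.1% identical to Vcp over 2421 bases. The others were Matr3, Ewsr1, Spg11 and Tia1. The sources used here do not say how reads that match more than 1 place were counted. The values of all 7 members are uncertain for that reason.

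Defining markers of the main brain cell types all had a row. Neuronal markers had mean normalized counts of 1806 to 13868, astrocyte markers 623.5 to 45839, oligodendrocyte markers 92.7 to 9162, microglial markers 37.0 to 921.5 and endothelial markers 182.9 to 393.7 in the authors' deposited table. Markers of spinal motor neurons, which are only some of the cells lost in ALS, were near the floor. Chat and Slc18a3 averaged 25.0 and 10.9 normalized counts in the authors' deposited table. Isl1 lay between them, and Mnx1 had no row. Blood markers averaged 26.7 to 1183 and choroid plexus markers 2.03 to 35.7 normalized counts in the authors' deposited table. Of the markers with a p, 0 were below an unadjusted p of 0.05 in the authors' deposited table, where 1.50% of all rows were. The most abundant blood markers, Hba-a2 and Hbb-bs, with 1183 and 721.5 normalized counts, had no p there. Whether blood content differed can therefore not be read from them.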

How the data were processed

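RNA-seq of brain from 5 C9-BAC and 3 wild-type male mice was used as the authors' deposited DESeq2 result. Trimmomatic, Bowtie2, DESeq, DESeq2 and build mm10 are named without versions, per the submitters' processing notes; the sources used here do not say how reads were counted, on which annotation or with which filters. Per the file headers, the deposited columns are a mean normalized count (a signal: the mean of counts divided by size factors), a log2 fold change with its standard error on the log2 scale, the Wald statistic (a score), a p-value and a Benjamini-Hochberg (BH) adjusted p-value. The deposited statistic equalled the fold change over its error within 8.3e-07, and the adjusted p equalled BH over 15944 rows within 5.3e-12. The table holds no value per mouse, so depth per sample is unknown here.

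Rows were matched to RefSeq symbols on GRCm38.p6 (15857 rows) or GENCODE vM21 (73), leaving 48 without a symbol. Transcript length and GC content are means over the vM21 transcripts of a row, found for 98.6% of rows. Motifs were searched with Python 3.11.15, and near-identical transcripts with blastn 2.17.0. The design took the authors' test as the main result. Every member was to be named, with full statistics for the 6 of smallest p and for Tardbp, Stmn2, Unc13a and C9orf72, and in each related list the 2 of smallest p; 3 genes of these lists are not reported here, and any other gene was named after its values were seen. Members and lists were chosen with earlier results of these data known. Residuals were taken on cubic polynomials and rescaled by the median absolute deviation. This step was run on simulated statistics with a linear GC trend and large shifts. How it handles small shifts or other trends was not tested.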

Additional observations from a re-analysis of the deposited data

How the results depend on the processing

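The count of members past an adjusted p of 0.05 was 0 under all 7 alternatives run. Of these, 4 leave each statistic as deposited and 3 alter it, and 17 members were positive under each of the 3. The number with an unadjusted p under 0.05 was 0 as deposited, 3 after rescaling to an empirical null (5.11% of all rows) and 3 with the residual on mean normalized count (5.19%), in each case Sod1, Anxa11 and Ccnf, and 4 with the residual on transcript GC content and length (6.26%). All 3 settings centre the statistic and divide it by its own spread, which for the deposited statistic was 0.777. Rescaling to an empirical null does nothing else. Stmn2, the member added with the residual on GC content and length, stood at 1.81 after rescaling alone and at 2.29 with that residual. The cause of that difference was not tested. The median log2 fold change of members minus that of all rows was 0.0399 as deposited and 0.0265 after GC content and length. Of 84 statistics of single members under the 3 settings that alter it, 82 kept their sign and 2 reversed: after GC content and length Tardbp stood at 0.61, against -0.06 as deposited, and Atxn2 at -0.21, against 0.05.

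No paired analysis was possible because the genotypes share no replicate numbers. Leaving out a mouse and a count test such as edgeR were not run, since the values used here are 1 per gene. What depth limits in each gene could not be compared for the same reason.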
